A study of Sus scrofa with 24 samples.

Results

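Heparan sulfate is a sugar chain carried by proteins of the cell surface and the matrix, and the enzymes that polymerise and sulfate it were followed here in the hippocampus of newborn piglets. The set consisted of 10 genes taken by symbol: the chain polymerase EXT1, the N-deacetylase/N-sulfotransferases NDST1 and NDST3, the 6-O-sulfotransferases HS6ST1, HS6ST2 and HS6ST3, and the 3-O-sulfotransferases HS3ST1, HS3ST2, HS3ST4 and HS3ST5. The set was chosen by the diet values of HS3ST4, whose level was lower on the hydrolyzed fat formula, so those values are given as a description, without a test. Of the 10 genes, 9 matched a row of the count tables, out of 38882 genes listed, and all 9 passed the filter on low counts. NDST1 was not matched and is not analysed here.

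Hippocampal RNA came from 24 piglets killed at 14 days, 6 for each of 4 groups. Piglets were small (SGA) or appropriate (AGA) for gestational age by birth weight after natural birth, and were raised from shortly after birth on a control formula (CON) or a hydrolyzed fat formula (HF), in which part of the fat was given in digested form. Each of the 12 litters gave 1 SGA and 1 AGA piglet of the same sex, and both littermates received the same formula, so size was compared between littermates and diet between 6 CON and 6 HF litters. Litters are the pairs named in the sample labels, and it is not stated whether different pairs shared a sow. Each formula had 3 litters in each of 2 cohorts and 3 litters of each sex. Size was set by birth weight alone, without a measure of growth before birth.

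Heparan sulfate chains start on a short linker attached to a core protein, are extended by a polymerase made of EXT1 and EXT2, and are then remodelled in the Golgi. N-deacetylase/N-sulfotransferases act first and open the chain to later enzymes, 6-O-sulfotransferases add sulfate along the glucosamine units, and 3-O-sulfotransferases add the rarest mark at the end of the sequence. In the brain the resulting patterns are known to tune growth factor receptors, axon guidance cues and adhesion molecules of the synapse, and 3-O-sulfotransferases differ in which sites they make, with HS3ST2 and HS3ST4 known as members enriched in neurons.

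HS3ST4 (gene 100520072) lay on the minus strand of chromosome 3, 20872499 to 21404256, in the Sscrofa10.2 genome, with 2798 bp of exon, and HS3ST2 lay on the same strand of chromosome 3, 23699323 to 23809577. HS3ST5 was annotated on chromosome 1, 90017049 to 90306175, and HS3ST1 on an unplaced scaffold with 1269 bp of exon. The 6-O-sulfotransferase genes were spread over chromosomes 15 (HS6ST1, 65657113 to 65699333), X (HS6ST2, 124748947 to 124840520) and 11 (HS6ST3, 73192012 to 73199496). NDST3 lay on chromosome 8, 112936356 to 113071738, and EXT1 on chromosome 4, 21837627 to 22128132. No exon of the 9 genes shared a base with another annotated gene.

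The libraries held 6017336 to 9284355 counts assigned to genes, and 3 counts in a library corresponded to 0.320 to 0.494 CPM, that is, counts scaled to a common library size. HS6ST1 was counted most deeply among the set, with 789 to 1442 reads per library, HS3ST4 had 298 to 818, NDST3 had 22 to 79, HS3ST5 27 to 108 and HS6ST2 37 to 123, so small differences in the last 3 could not be resolved. Markers of the hippocampus were present: all 4 CA1 markers, all 4 CA2 and CA3 markers and 4 of 5 dentate gyrus markers passed the filter, while TDO2, the remaining dentate marker, had no counts. Markers of excitatory neurons differed between libraries. AGA CON replicate 2 (litter 4) and AGA HF replicate 4 (litter 7) had the lowest sums of the 4 matched excitatory neuron markers, 5143 and 5633 CPM against 5725 to 8437 CPM in the other libraries (4 of 5 markers matched, none at 0). By group that sum ranged from 5143 to 8017 CPM in AGA CON, 5633 to 7942 in AGA HF, 7578 to 8437 in SGA CON and 6778 to 8024 in SGA HF. The same 2 libraries had the highest astrocyte marker sums, 12664 and 12257 CPM against 7684 to 10754 CPM, and the main size results are therefore also given without litters 4 and 7.

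Levels were compared between genes as CPM per kb of exon, which depends on the annotated exon length. RNA quality, which the study measured, and the evenness of reads along the exons were not taken into account. HS6ST1 had the highest level, 36.2 ± 3.30 CPM per kb (SD, n = 24), and exceeded HS6ST3 (27.7 ± 5.65) in 23 of 24 libraries. HS6ST3, HS3ST4 (25.6 ± 5.19) and HS3ST1 (25.1 ± 5.81) were not separated beyond their spread: HS6ST3 was above HS3ST4 in 16 of 24 libraries and HS3ST4 above HS3ST1 in 12. A step followed to HS3ST2 (11.4 ± 3.86), which was below HS3ST1 in all 24 libraries, and to EXT1 (9.94 ± 1.03), which was below HS3ST2 in 19. HS6ST2 (3.24 ± 0.949), HS3ST5 (2.45 ± 0.635) and NDST3 (1.38 ± 0.384) formed the low end, and HS6ST2 was above HS3ST5 in only 18 of 24 libraries. EXT1 and HS6ST1, the polymerase and the leading 6-O-sulfotransferase, varied least between piglets, with coefficients of variation of 10.3% and 9.11% against 20.3% to 34.0% for the other 7 genes.

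**Figure D1:**
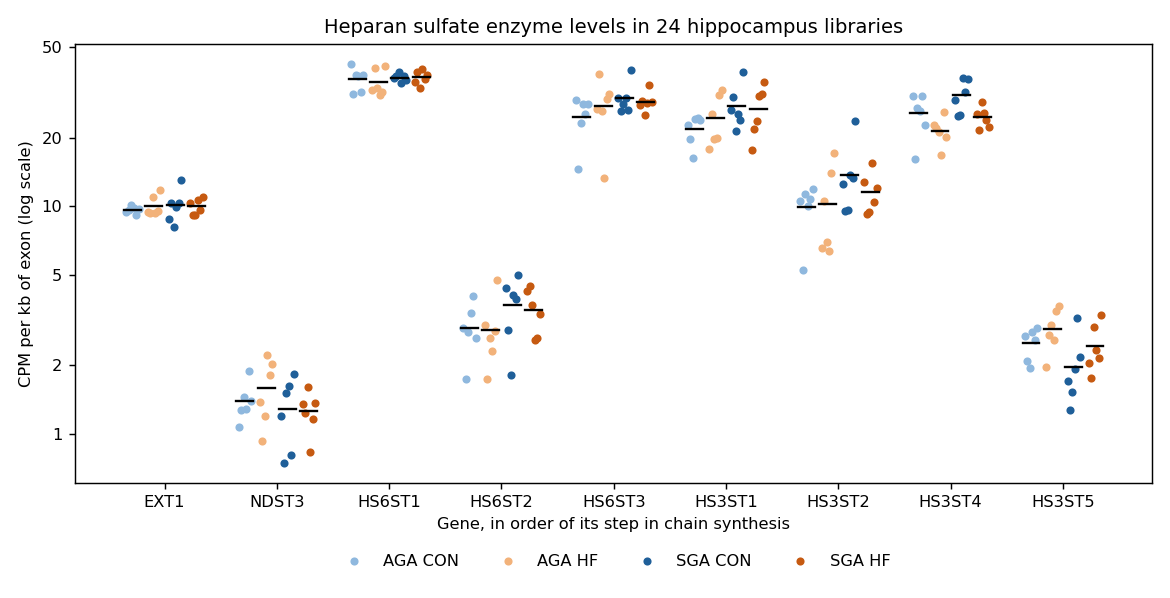
Level of each gene in CPM per kb of exon (log axis) in the 24 libraries, with 1 point per piglet coloured by group and a black line at the mean of the 6 piglets. HS6ST1, HS6ST3, HS3ST4 and HS3ST1 sit together at the top, and HS6ST2, HS3ST5 and NDST3 lie at the bottom.

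Within the 3-O-sulfotransferases the summed level per kb was carried by HS3ST4 and HS3ST1, with mean shares of 39.9% ± 5.35 and 39.0% ± 5.09 (SD, n = 24). HS3ST2 made up 17.3% ± 3.07 and HS3ST5 3.89% ± 1.08 of that sum. The share of HS3ST4 was 42.1% ± 4.14 in CON piglets and 37.7% ± 5.67 in HF piglets (n = 12 each), with ranges of 35.8% to 47.8% and 27.4% to 46.2% that overlapped. Between sizes its share hardly moved, at 39.8% ± 5.92 in AGA and 39.9% ± 4.98 in SGA piglets. Within the 6-O-sulfotransferases, HS6ST1 made up 54.3% ± 4.67, HS6ST3 40.9% ± 4.49 and HS6ST2 4.83% ± 1.23.

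HS3ST4 was the gene that led to this set, through its lower level on the HF formula. In CON litters the mean of the 2 littermates was 57.4 CPM at the lowest, 83.1 CPM at the median and 87.8 CPM at the highest, and in HF litters 59.2, 64.1 and 69.9 CPM. The ranges overlapped, as litter 4, a CON litter that holds one of the libraries low in excitatory neuron markers, lay below every HF litter. The mean over litters was 78.6 ± 11.6 CPM on CON and 64.4 ± 5.12 CPM on HF (SD, n = 6 litters), a ratio of 0.820. In the model on single libraries the fitted log2 fold change was -0.27 ± 0.05 (SE), with -0.31 ± 0.07 in AGA and -0.23 ± 0.07 in SGA piglets. That model treats littermates, which shared a formula, as separate piglets. In the sums of littermates, where the litter is the unit, the log2 fold change was -0.27 ± 0.085 (SE).

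The distance between formulas was not the same in the 2 cohorts. In cohort 1 the 3 CON litters averaged 71.4 CPM and the 3 HF litters 66.0 CPM, and in cohort 2 the averages were 85.8 and 62.8 CPM. The fitted log2 fold change was -0.10 in cohort 1 alone and -0.44 in cohort 2 alone. Without litters 4 and 7, left out after their values were seen, the averages were 82.8 CPM on CON and 65.4 CPM on HF, and the fitted log2 fold change was -0.27. All of these values were in view when HS3ST4 was chosen, and nothing is inferred from them.

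**Figure D2:**
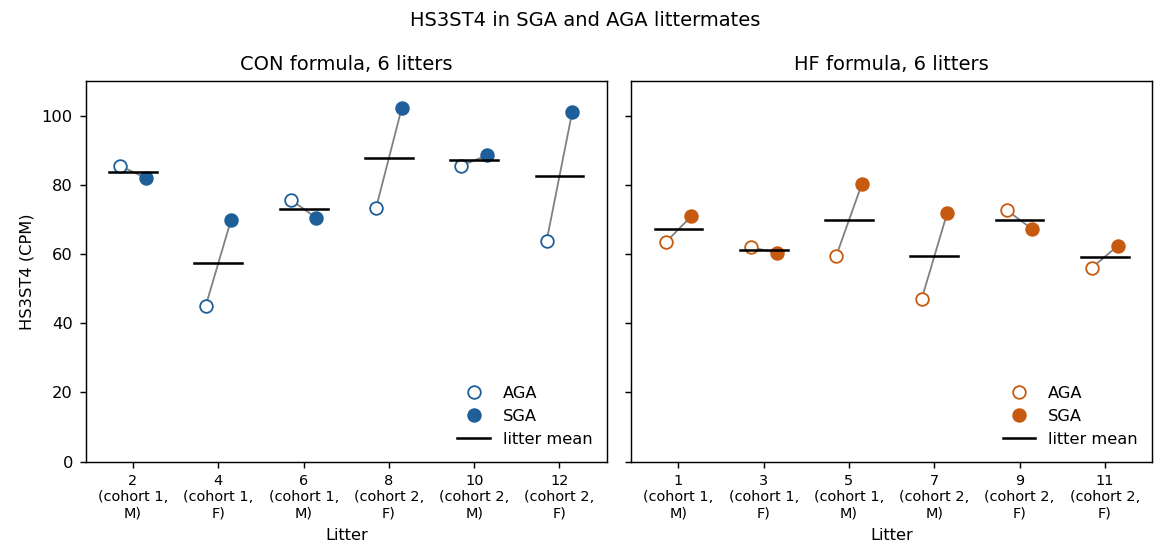
HS3ST4 in CPM in the 6 CON litters (blue) and the 6 HF litters (orange), with open circles for AGA and filled circles for SGA piglets, grey lines joining littermates and black lines at the litter mean. The litter means reach 87.8 CPM on CON and 69.9 CPM on HF, and the SGA piglet is above its AGA littermate in 8 of 12 litters.

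Excitatory neuron markers moved with HS3ST4 across libraries. Per 1000 CPM of the 4 markers (SLC17A7, CAMK2A, NEUROD2 and ZBTB20), HS3ST4 was 10.24 ± 0.841 CPM in CON litters, with a range of 8.96 to 11.1, and 9.14 ± 0.719 CPM in HF litters, with a range of 8.04 to 10.0 (SD, n = 6 litters each). On this scale the ratio of HF to CON was 0.892, against 0.820 before division, and the ranges overlapped. The summed markers themselves were 7613 ± 845 CPM in CON and 7070 ± 797 CPM in HF piglets (n = 12 each), and none of the 3 markers that passed the filter was called for diet. Astrocyte marker sums were 9588 ± 1257 and 9259 ± 1186 CPM. In whole tissue, fewer cells of a type and less RNA per cell cannot be told apart, and the part of cell makeup in the HS3ST4 difference was not tested.

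**Figure D3:**
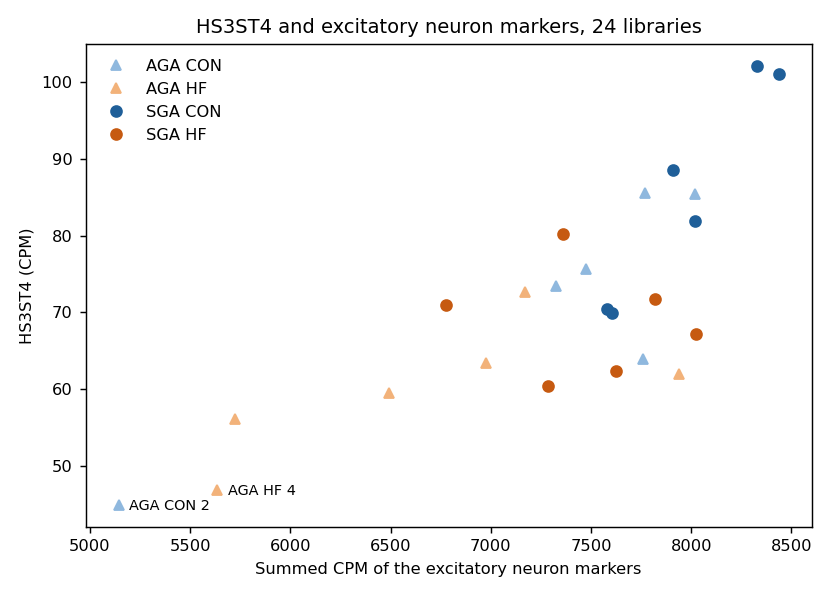
HS3ST4 in CPM against the summed CPM of the 4 excitatory neuron markers, 1 point per library, with triangles for AGA and circles for SGA piglets. The 2 named libraries, AGA CON replicate 2 and AGA HF replicate 4, lie lowest on both axes.

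None of the other 8 enzymes passed the threshold for diet. The fit on single libraries called 26 of 16326 genes for diet at the study's threshold of a false discovery rate (FDR) p under 0.4, a share of 0.159%, and the 8 were not among them in edgeR, limma voom or DESeq2. At an unadjusted p under 0.05, which 7.09% of all genes met, HS6ST3 was the only one of the 8. HS6ST3 had litter means of 48.6, 65.4 and 80.4 CPM (lowest, median and highest) on CON and 49.5, 68.0 and 80.0 CPM on HF, which overlapped almost completely. Its fitted log2 fold change of 0.16 ± 0.06 came with surrogate variables in the model, and was 0.035 ± 0.11 in the sums of littermates. In those sums no gene was called for diet at an FDR p under 0.05 (0.0%), in edgeR or in DESeq2, while 650 genes (3.98%) and none of the 8 had an unadjusted p under 0.05. HS3ST5, which like HS3ST1 can make the chain sequence that binds antithrombin, averaged 7.76 ± 1.62 CPM on CON and 9.23 ± 1.86 CPM on HF over 6 litters each. HS3ST1 averaged 31.4 ± 5.02 and 32.4 ± 7.54 CPM, HS3ST2 23.2 ± 6.61 and 21.4 ± 4.32 CPM, and EXT1 33.8 ± 2.90 and 34.4 ± 2.45 CPM. Their fitted log2 fold changes lay between -0.017 and 0.17, and those of HS6ST1, HS6ST2 and NDST3 were 0.080 ± 0.044, -0.14 ± 0.13 and -0.090 ± 0.16 (SE).

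The comparison of size asked whether small and normal littermates differed, and HS3ST4 was chosen by its diet values. In the model on single libraries both contrasts share the same estimate of spread for a gene. The size p of HS3ST4 in that model is therefore not independent of the choice. In AGA piglets HS3ST4 was 44.9 CPM at the lowest, 63.6 CPM at the median and 85.5 CPM at the highest, and in SGA piglets 60.4, 71.3 and 102 CPM (n = 12 each). The ranges overlapped, but the SGA piglet was above its littermate in 8 of 12 litters, in 4 of 6 on each formula. On the log2 scale the gains were largest in litters 12, 4 and 7, where HS3ST4 went from 63.9 to 101 CPM, from 44.9 to 69.9 CPM and from 46.9 to 71.8 CPM. Litters 8 and 5 also rose, from 73.4 to 102 CPM and from 59.5 to 80.2 CPM. The 4 decreases were small, the largest being from 72.6 to 67.2 CPM in litter 9.

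HS3ST4 was the only 1 of the 9 enzymes called for size, with a log2 fold change of 0.20 ± 0.05 (SE) and an FDR p of 0.382 in edgeR's quasi-likelihood test, against 78 genes called in all (0.478%). The call was lost with litter as a block, where it changed by 0.24 on the log2 scale at an FDR p of 0.445 and 2.57% of all genes were called, and with limma voom (FDR p of 0.447). It was lost without litters 4 and 7 together, where the log2 fold change of 0.20 had an FDR p of 0.517, and in models without surrogate variables (0.23, FDR p of 0.824). It was also lost when any one of litters 1, 6, 7, 9, 10 and 11 was left out (FDR p of 0.420 to 0.560), although the log2 fold change stayed between 0.18 and 0.24. The FDR p also depends on the p-values of all other genes, so these losses do not single out litters on which HS3ST4 rests. In the quasi-likelihood test its unadjusted p was 7.3e-04 without litter 11, where the call was lost. It was 0.0015 without litter 8, where the call was kept. Within cohorts the log2 fold change was 0.16 in cohort 1 and 0.29 in cohort 2, and neither passed the threshold (FDR p of 0.976 and 0.888).

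Over littermate pairs alone, the mean difference of HS3ST4 was 0.24 ± 0.31 on the log2 scale (SD, n = 12 litters), with a two-sided exact sign-flip p = 0.0269. After adjustment over all 16326 genes this p was 0.317. It was 0.0537 in the exact test when any one of litters 4, 5, 7, 8 or 12 was left out, and 0.107 without litters 4 and 7 together, where the mean difference was 0.16. The excitatory neuron markers moved the same way: their sum was higher in the SGA piglet in 10 of 12 litters, by 0.16 ± 0.22 on the log2 scale (exact sign-flip p = 0.0161), and CAMK2A, a kinase of excitatory neurons, was itself called for size (log2 fold change 0.13 ± 0.03, FDR p of 0.308). FEZF2, a transcription factor of deep cortical projection neurons, was the other marker called (0.29 ± 0.06, FDR p of 0.224). The summed markers of subiculum and deep cortex were 166 ± 29.4 CPM in AGA and 206 ± 52.2 CPM in SGA piglets, higher in the SGA piglet in 9 of 12 litters. Of the 5 that passed the filter, 3 had a positive log2 fold change for size (median 0.092). RXFP1 (-0.46) and NXPH3 (-0.047) were negative. The CA1 sums were 247 ± 66.3 and 315 ± 51.3 CPM, higher in 10 of 12 litters. Those of the dentate gyrus were 118 ± 10.3 and 118 ± 13.9 CPM, higher in 6 of 12 litters. Litter 12, where the littermates differed most in HS3ST4, holds SGA CON replicate 6. That library had the highest subiculum and deep cortex sum (361 CPM against 128 to 237 CPM in the other libraries). Without litter 12 the log2 fold change of HS3ST4 was 0.20 in the quasi-likelihood test (unadjusted p = 6.6e-04). Its FDR p was 0.273, with 414 genes called in all. The part of cell makeup in the size difference was not tested. Per 1000 CPM of the excitatory neuron markers, HS3ST4 was 9.42 ± 1.02 CPM in AGA and 9.96 ± 1.42 CPM in SGA piglets. The mean littermate difference of this ratio was 0.075 ± 0.24 on the log2 scale (exact sign-flip p = 0.299, higher in 8 of 12 litters). The divisor was itself higher in the SGA piglet in 10 of 12 litters, so this p does not test the part of cell makeup. The summed oligodendrocyte markers were lower in the SGA piglet in 11 of 12 litters (mean difference -0.31 ± 0.28, exact sign-flip p = 0.00439).

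The other 3-O-sulfotransferases did not move as one. HS3ST1 was 20.7, 29.6 and 41.1 CPM (lowest, median and highest) in AGA piglets and 22.5, 32.8 and 49.3 CPM in SGA piglets, and the SGA piglet was above its littermate in 9 of 12 litters. The mean littermate difference of HS3ST1 was 0.23 ± 0.29 on the log2 scale (SD, n = 12, exact sign-flip p = 0.0220), and 0.15 without litters 4 and 7 (exact p = 0.0879). In the fit, HS3ST1 had a log2 fold change of 0.22 ± 0.10 and did not pass the threshold (FDR p of 0.713). It passed only when litter 5 or litter 8 was left out (log2 fold change 0.24 and 0.31, FDR p of 0.366 and 0.395). Those 2 fits called 1259 and 333 genes in all, against 78 with every litter.

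HS3ST5 had the opposite sign. It was 6.78, 9.38 and 12.6 CPM in AGA piglets and 4.43, 7.30 and 11.5 CPM in SGA piglets, and the SGA piglet was below its littermate in 10 of 12 litters. The mean littermate difference of HS3ST5 was -0.31 ± 0.32 (SD, n = 12, exact sign-flip p = 0.00977), and -0.30 without litters 4 and 7 (exact p = 0.0234), so the smallest p of the set did not rest on those libraries. It rested on few reads, and the adjusted p over all genes was 0.234 in the exact test and 0.797 in the fit, where the log2 fold change was -0.24 ± 0.14.

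HS3ST2 was 10.24, 20.7 and 33.4 CPM in AGA and 18.2, 23.95 and 46.4 CPM in SGA piglets, and differed by 0.34 ± 0.59 between littermates (exact p = 0.0684, higher in 8 of 12), and by 0.20 without litters 4 and 7. Its spread was wide, from -0.51 in litter 11 to 1.26 in litter 7.

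The 6-O-sulfotransferases and the early enzymes passed no test of size. HS6ST2 was higher in the SGA piglet in 8 of 12 litters, by 0.30 ± 0.56 on the log2 scale (SD, exact p = 0.0869). HS6ST3 was higher in 9 of 12 litters, by 0.21 ± 0.41 (exact p = 0.104), and this mean was 0.064 without litters 4 and 7, where HS6ST3 went from 34.8 to 62.4 CPM and from 31.6 to 67.5 CPM. HS6ST1 differed by 0.054 ± 0.18 (exact p = 0.324) and EXT1 by 0.022 ± 0.20 (exact p = 0.717). NDST3, which favours the deacetylase step, differed by -0.23 ± 0.63 (exact p = 0.234), with 6 litters in each direction and a low count of reads. Of the 9 exact tests, 3 had a p under 0.05, the smallest that 12 litters allow being 0.000488, while 12.6% of all 16326 genes had a p under 0.05 in this test.

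**Figure D4:**
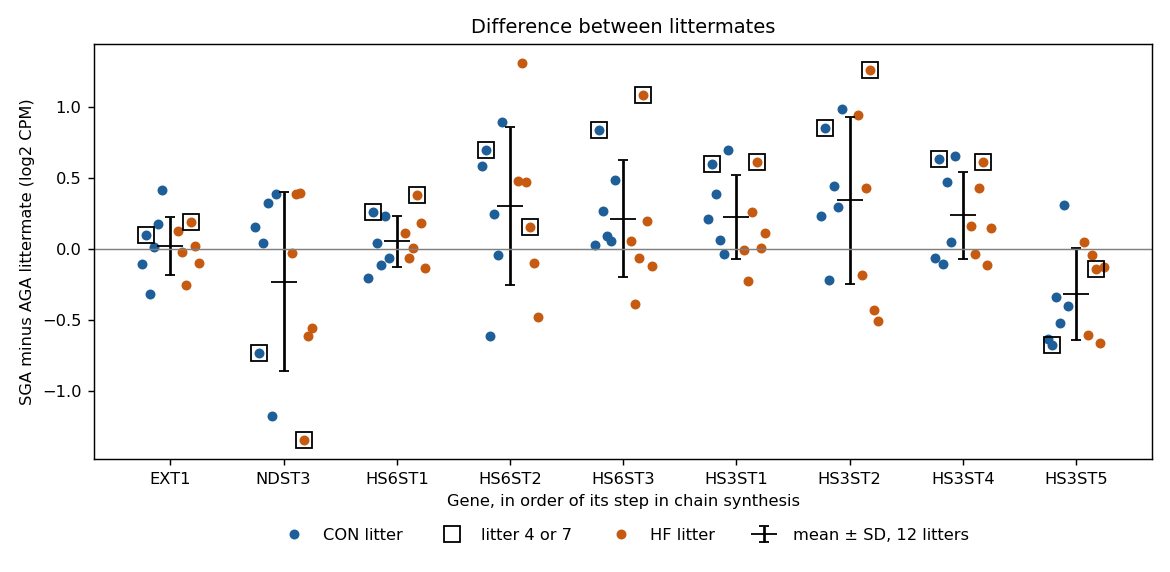
Difference in log2 CPM between the SGA and the AGA piglet of each litter, by gene, with blue points for CON litters, orange points for HF litters, squares around litters 4 and 7, and black bars for the mean ± SD of 12 litters. HS3ST5 is below zero in 10 litters, and the squares lie near the top of HS6ST3, HS3ST1, HS3ST2 and HS3ST4.

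The effect of size was not shown to depend on the formula for any of the 9 enzymes. The fit called 8 of 16326 genes (0.049%) for the interaction and none of the 9 in edgeR, limma voom or DESeq2, and none of the 9 reached an unadjusted p under 0.05, which 4.01% of genes did. For HS3ST4 the interaction was 0.082 ± 0.096 on the log2 scale (FDR p of 0.918), with a size effect of 0.16 ± 0.07 on CON and 0.25 ± 0.07 on HF, but the sign turned without surrogate variables (-0.074) and with litter as a block (-0.069). By group HS3ST4 was 71.5 ± 15.4 CPM in AGA CON, 60.1 ± 8.53 in AGA HF, 85.7 ± 14.2 in SGA CON and 68.8 ± 7.20 in SGA HF (SD, n = 6 each). The littermate differences of HS3ST4 averaged 0.28 in the 6 CON litters and 0.20 in the 6 HF litters (two-sided exact permutation p = 0.710). For HS3ST1 they averaged 0.32 and 0.13 (exact permutation p = 0.273), and for HS3ST5 -0.38 and -0.25 (exact permutation p = 0.535).

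**Figure D5:**
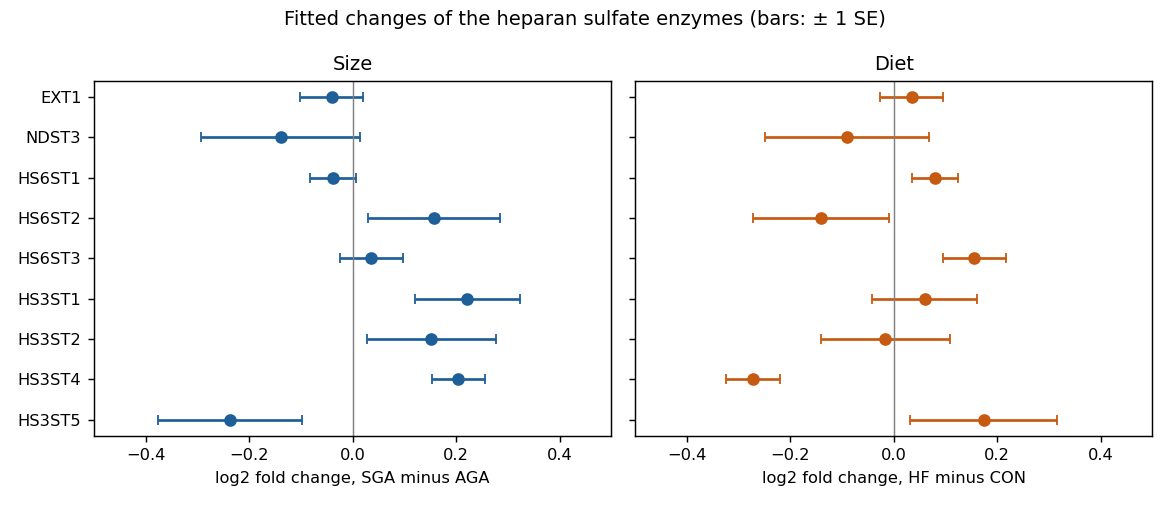
Fitted log2 fold change ± 1 SE of the 9 enzymes for size (SGA minus AGA, left) and diet (HF minus CON, right) in the model on single libraries. For HS3ST4 size is at 0.20 and diet, which served to choose it, at -0.27. The diet bars treat littermates, which shared a formula, as separate piglets.

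Cohort and sex were compared in the sums of littermates, with diet, sex and cohort as terms. At an FDR p under 0.05 the fit called 73 genes for cohort (0.447%) and 17 for sex (0.104%), and none of the 9 for either, in edgeR or in DESeq2. At an unadjusted p under 0.05, which 11.2% of all genes met for cohort, 4 of the 9 were higher in cohort 2: HS3ST2 by 0.44 ± 0.13, HS3ST5 by 0.39 ± 0.14, HS3ST1 by 0.28 ± 0.10 and NDST3 by 0.28 ± 0.13 on the log2 scale (SE), with FDR p of 0.212, 0.297, 0.268 and 0.433. HS3ST2, for example, was 18.7 ± 4.51 CPM in cohort 1 and 25.9 ± 8.44 CPM in cohort 2 (SD, n = 12 each). HS3ST4 differed by 0.14 ± 0.09 between cohorts and by 0.14 ± 0.09 between sexes. For sex 1 of the 9, HS3ST1, had an unadjusted p under 0.05, against 3.65% of all genes, being lower in males by -0.24 ± 0.10 on the log2 scale (medians of 28.1 and 35.2 CPM, n = 12 each, FDR p of 0.999).

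The rest of the heparan sulfate pathway was followed with a list of 46 further genes, of which 42 matched and 39 passed the filter. In edgeR none of the 39 was called for size, diet or the interaction, nor in limma voom or DESeq2. At an unadjusted p under 0.05, 4 of 39 passed for size (2 higher, 2 lower in SGA), 3 for diet and 1 for the interaction, against 10.6%, 7.09% and 4.01% of all genes. The median log2 fold change of the 39 was 0.011 for size and 0.032 for diet, beside medians of -0.00225 and 0.00205 over all genes.

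By role, the most abundant gene per kb of the linkage region was B3GAT3, the glucuronyltransferase that completes the linker, at 54.2 ± 7.08 CPM per kb (SD, n = 24), and that of chain polymerisation was EXTL1 at 34.7 ± 4.46. Among the further modifying enzymes HS2ST1, which adds 2-O-sulfate, led with 13.2 ± 1.202 CPM per kb, below HS6ST1 and HS3ST4. HS3ST3A1 and HS3ST3B1, the remaining 3-O-sulfotransferases matched, were at 0.353 ± 0.193 and 0.00559 ± 0.0198 CPM per kb, far under HS3ST4, and HS3ST3B1 did not pass the filter. SULF2, an enzyme that removes 6-O-sulfate outside the cell, was at 5.15 ± 1.55 CPM per kb. PAPSS1, which makes the sulfate donor, was at 72.1 ± 9.29, and IDS, a lysosomal sulfatase, at 23.4 ± 4.204. The core proteins were led by SDC3, a syndecan of neurons, at 184 ± 22.4 CPM per kb. Fitted log2 fold changes of B3GAT3, EXTL1, HS2ST1, SULF2, PAPSS1, IDS and SDC3 ran from -0.089 to 0.079 for size and from -0.10 to 0.14 for diet. The gene of the list with the smallest p for size, named after its value was seen, was XYLT1, which starts the linker (log2 fold change 0.17 ± 0.05, FDR p of 0.506).

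A second list held 30 ligands, receptors, feedback targets, guidance cues and synaptic proteins known to depend on or bind heparan sulfate, of which 29 matched and 27 passed the filter. In edgeR and limma voom none of the 27 was called for size, diet or the interaction. DESeq2 called 2 of the 27 for size, where it called 210 of 16326 genes in all, and none for the others. At an unadjusted p under 0.05, 7 of 27 passed for size, 6 of them higher in SGA, against 10.6% of all genes. For diet and the interaction 3 of 27 passed each, against 7.09% and 4.01% of all genes. The median log2 fold change of the 27 was 0.049 for size and -0.057 for diet. Their most abundant members per kb were FGF1 among the ligands (21.3 ± 3.56 CPM per kb), FGFR1 among the receptors (51.1 ± 6.45), the transcription factor ETV5 among the feedback targets (18.4 ± 2.42) and the growth factor PTN among the guidance and synaptic proteins (247 ± 43.1). For size their log2 fold changes were 0.064, 0.17, 0.020 and 0.14. The smallest p for size belonged to DUSP6, a phosphatase induced by growth factor signalling and named after its value was seen (0.31 ± 0.09, FDR p of 0.428).

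Genes whose log2 CPM was most like that of HS3ST4 over the 24 libraries included TPM3, a tropomyosin (Pearson r of 0.87), ADAM11, a catalytically inactive ADAM family protein (0.86), SYN1, a synaptic vesicle protein (0.86), and GNAO1, a G protein subunit (0.86). At the other end were CHD7, a chromatin remodeller (-0.85), UIMC1, a ubiquitin-binding DNA repair protein (-0.85), and SLCO2B1, an organic anion transporter (-0.78). Without the 2 libraries farthest from the median of each gene, r was 0.76 to 0.80 for the first 4 genes and -0.76, -0.76 and -0.64 for the last 3. The sum of the excitatory neuron markers had an r of 0.81 with HS3ST4, and of 0.66 without its 2 farthest libraries. Among the set, HS3ST2 was most like HS3ST4 (0.64), ahead of HS6ST3 (0.57) and HS6ST2 (0.54), while HS3ST5 (-0.11) and NDST3 (-0.068) were unlike it. Depth and marker levels differed between these libraries, every gene of a library shares them, and the values are a description.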

How the data were processed

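RNA sequencing was performed on the hippocampus of 24 piglets, 6 per group of size and diet. The authors trimmed reads (Trimmomatic 0.33), aligned them to Sscrofa10.2 (STAR 2.5.2a) and counted reads in exons by strand with featureCounts of Subread 1.5.0, per the submitters' processing notes and the study's methods. The deposited values are raw counts per Entrez gene for each library, not normalized. An entry without an identifier (0.613% to 1.62% of counts) was left out. Libraries held 6017336 to 9284355 counts.

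A gene was kept if 3 or more libraries reached 1 CPM (16326 genes), and TMM factors were computed on these. edgeR 4.0.16 quasi-likelihood tests (R 4.3.3) were fitted with the 4 groups, sex and 5 surrogate variables (sva 3.50.0). p-values were adjusted by the Benjamini-Hochberg method over 7 contrasts together, and the study's threshold of 0.4 was used. At that threshold up to 4 in 10 calls are expected to be false. Diet, cohort and sex were also fitted on the sums of littermates (threshold 0.05). For each member, the mean SGA minus AGA difference in log2 CPM (prior count of 2) was tested by an exact two-sided sign-flip test over litters. Values in CPM are after TMM scaling.

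The labels give the litter of each piglet, and littermates' deviations from their group means correlated by 0.154 on average (0.0144 to 0.329), so litter was also fitted as a block. No 2 libraries held identical counts. Whether litters stand for independent sows is not stated, and p-values measure the spread between these samples.

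Members and gene lists were chosen with earlier results of these data known. Named genes were all members, list genes called in a comparison or, for a role with none, its most abundant gene per kb, and the 5 genes most like and 3 most unlike HS3ST4, of which 1 is not reported here. XYLT1, DUSP6, HS3ST3A1, HS3ST3B1 and the cell type markers in the text were named after their values were seen. Symbols came from a gene name table of another assembly, whose coordinates were not used. The alternatives were limma voom (3.58.1), DESeq2 (1.42.0), other scaling factors, filters and models, each cohort alone and each litter left out. The fits were also run on simulated counts, drawn without litter or cohort effects and with larger changes than those of HS3ST4. That run does not show how well changes as small as those of HS3ST4 are found. The limit of 3 counts covers counting error only. Sequences of the genes were not used here.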

Additional observations from a re-analysis of the deposited data

Results flagged for a closer look

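Of 36 groups of 6 libraries (9 enzymes in 4 groups), 3 held a library far from the other 5, and chance gives about 1 such group in 20. In AGA CON, HS3ST2 was lowest in replicate 2, at 10.24 CPM against 19.6 to 23.3 CPM in the other 5. That library also had the lowest mean correlation with the others (0.964) and the lowest excitatory neuron marker sum (5143 CPM). In SGA CON, replicate 6 was highest for HS3ST2, at 46.4 CPM against 18.7 to 26.8 CPM, and for HS6ST3, at 94.0 CPM against 62.4 to 71.2 CPM. In the same library the summed markers of subiculum and deep cortex were 361 CPM, against 128 to 237 CPM in the other 23 libraries, and FEZF2, a transcription factor of deep cortical projection neurons, was at 176 CPM against 49.2 to 129 CPM. The part of the dissected region in these values was not tested.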

How the results depend on the processing

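Counts over all genes moved widely. The 78 genes called for size became 210 with DESeq2, 143 with TMM factors computed before the filter, 124 without the filter, 43 with 1 CPM in at least 6 libraries, 13 without surrogate variables and 1200 with FDR within each contrast. The 26 called for diet became 88, 48, 45, 9, 0 and 6, were 10 with limma voom, 16 with cohort in place of surrogate variables and 15 without litters 4 and 7, and were 0 in the sums of littermates with or without litters 4 and 7 (650 genes at an unadjusted p under 0.05 in the full sums, and 557 with DESeq2, which also called 0). The 8 called for the interaction became 17, 20, 1 (at least 6 libraries), 1 (limma voom), 0 without surrogate variables or with FDR within the contrast, 15 with RLE factors and 3 without litters 4 and 7. Each cohort alone gave 0 for size and the interaction and 1 for diet. With litter as a block (the replicate block) size gave 420 and the interaction 45, and 36 and 3 without litters 4 and 7. The replicate block changed the call of 1 member, HS3ST4, from called to not called (log2 fold change 0.24).

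Of the 9 members, 1 was called for size and 0 under limma voom, the 6-library filter, both models without surrogate variables, the block, each cohort alone, and without litters 4 and 7. For diet, where HS3ST4 served to choose the set and is not tested, none of the other 8 was called under any of these settings. The 3 exact tests under 0.05 became 1 without litters 4 and 7. For the lists, counts over all genes are in brackets. The pathway list (39 tested), with 0 called, gave 1 for size with cohort as a term (106), 1 with the block (420, or 2.57%) and 3 with FDR within the contrast (1200 of 16326). The binding list (27 tested) gave 2 for size under DESeq2 (210). It gave 1 with factors before the filter (143), with no filter (124), without surrogate variables (13) and with cohort as a term (106). It gave 1 with the block (420), 1 with the block without litters 4 and 7 (36), and 7 with FDR within the contrast (1200). For diet the binding list gave 1 without litters 4 and 7 (15). For the interaction it gave 1 with RLE factors (15) and 1 with factors before the filter (20). The cause of these shifts was not tested.

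Leaving out 1 litter gave 14 (litter 9) to 1259 (litter 5) genes for size, 5 (litter 9) to 757 (litter 5) for diet and 3 (litters 7 and 10) to 333 (litter 5) for the interaction. It gave 0 to 2 members for size, 0 for diet beside HS3ST4, 0 for the interaction, cohort and sex, and 2 to 5 exact tests. The pathway list gave 0 to 2, 0 to 3 and 0 to 1 calls for size, diet and the interaction, and the binding list 0 to 5, 0 to 1 and 0 to 3.

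Signs turned only for values that passed no FDR threshold, among them HS6ST3 for diet, which had an unadjusted p under 0.05 in the quasi-likelihood test. For size, HS6ST1 (log2 fold change -0.038) was 0.048 without surrogate variables, 0.048 with cohort as a term, 0.054 with the block, 0.0006 with the block without litters 4 and 7, 0.018 in cohort 1 and 0.079 in cohort 2. EXT1 was 0.026, 0.024 and 0.022 in the first 3 and 0.12 in cohort 2, and NDST3 0.053 in cohort 1. For diet, HS6ST1 was -0.025 without surrogate variables, -0.025 with cohort as a term, -0.024 in the sums, -0.097 in the sums without litters 4 and 7, -0.020 without them in single libraries and -0.072 in cohort 1. NDST3 was 0.081, 0.081, 0.072, 0.055, 0.13 and 0.078 in the same order, and 0.041 in cohort 2. HS6ST3 was -0.13 in cohort 2 and -0.036 in the sums without litters 4 and 7, HS6ST2 0.23 in cohort 1 and 0.024 in those sums, and HS3ST1 -0.10 in cohort 1. The HS3ST4 interaction was -0.074 without surrogate variables, -0.076 with cohort as a term, -0.069 with the block, -0.081 with the block without litters 4 and 7 and -0.18 in cohort 2. With 1 litter left out, signs turned for size in EXT1 (-0.059 to 0.0034), HS6ST1 (-0.058 to 0.044) and HS6ST3 (-0.013 to 0.17), and for diet in HS3ST1 (-0.049 to 0.14), HS3ST2 (-0.18 to 0.065), HS6ST1 (-0.026 to 0.10) and NDST3 (-0.15 to 0.19). The omission of litters 4 and 7, the factors before the filter and the omissions in the exact tests were chosen after seeing the data.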
